A study of Rattus norvegicus with 10 samples.

Results

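The glutathione S-transferases followed here were 10 listed rat genes, Gsta2, Gsta4, Gstm1, Gstm2, Gstp1, Gstt1, Gsto1, Gstz1, Gstk1 and Mgst1. A gene was taken as measured where the accession of an array probe belonged to it, which gave 11 probes for 9 of the 10 genes among 41012 probes on the array. Gsta2 and Gstp1 had 2 probes each, and Gstz1 was matched by none. Liver RNA of male Sprague Dawley rats was hybridized to Agilent whole rat genome oligo arrays, a single-channel platform, with 1 array for each rat. Control rats (n = 3) received solvent, propylene glycol, under the skin. SM rats (n = 4) received sulfur mustard, a bifunctional alkylating agent, in that solvent, once, at 3.5 mg/kg, which is 0.7 of the LD50 (the median lethal dose). SM + MSTF rats (n = 3) received the same SM injection and, 1 h later, 120 mg/kg of MSTF (salvianolic acids with the total flavonoids of Anemarrhena asphodeloides) into the stomach, and all livers were collected at 24 h. No group received MSTF alone, so the SM + MSTF arrays show MSTF only in animals already injected with SM.

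Glutathione S-transferases join the thiol of glutathione to electrophiles, and the conjugates are exported and trimmed to mercapturic acids. The cytosolic enzymes are dimers sorted by sequence into classes named by Greek letters. The kappa enzyme lies in mitochondria and peroxisomes, and the microsomal enzymes are a separate family of membrane proteins. In liver the alpha and mu classes are abundant hepatocyte proteins, and several of their genes respond to the transcription factor Nrf2 through the antioxidant response element.

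Promoter windows of 300 bases around the transcription start were read from RefSeq (build GRCr8) for 9 of the 10 genes, all but Gstt1. They were searched on both strands for the core of the antioxidant response element (TGACNNNGC) and for the AP-1 element (TGACTCA), which can share bases with that core. The core was in the windows of Gsta2, Gstp1 and Gstz1, and in 12.1% of 33469 RefSeq windows of this length. The AP-1 element was in those of Gstp1 and Gsto1, and in 4.63% of all windows. Among the other GST genes with a window, 5 of 17 held the core (Gsta1, Gsta3, Gstcd, Gstm5 and Gstm7) and 1 of 17, Gstm5, held the AP-1 element. The windows below are those of Gsta2, which moved most between arrays, of Gstp1, which holds both motifs, and of Gsto1, the member with the smallest p in SM against control. They are printed 5′ to 3′ along the gene, with the motif in capitals. In Gstp1 the motifs overlap and start at -61 from the transcription start. In Gsta2 the core lies on the opposite strand and starts at 37 after the start, and in Gsto1 the AP-1 element lies on the opposite strand and starts at 25 after it.
Gsta2, chr8:88077043-88077342, minus strand: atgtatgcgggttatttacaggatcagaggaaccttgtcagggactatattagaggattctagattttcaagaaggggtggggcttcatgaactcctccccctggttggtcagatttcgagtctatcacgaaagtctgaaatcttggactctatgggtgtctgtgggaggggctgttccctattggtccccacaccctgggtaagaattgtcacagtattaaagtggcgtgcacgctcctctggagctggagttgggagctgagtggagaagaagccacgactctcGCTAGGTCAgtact
Gstp1, chr1:210769656-210769955, minus strand: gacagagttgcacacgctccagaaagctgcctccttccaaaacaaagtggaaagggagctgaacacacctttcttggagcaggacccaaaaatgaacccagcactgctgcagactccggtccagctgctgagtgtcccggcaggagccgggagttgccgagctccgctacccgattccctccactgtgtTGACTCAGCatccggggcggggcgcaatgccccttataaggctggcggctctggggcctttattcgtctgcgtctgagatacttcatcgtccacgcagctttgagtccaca
Gsto1, chr1:256662281-256662580, plus strand: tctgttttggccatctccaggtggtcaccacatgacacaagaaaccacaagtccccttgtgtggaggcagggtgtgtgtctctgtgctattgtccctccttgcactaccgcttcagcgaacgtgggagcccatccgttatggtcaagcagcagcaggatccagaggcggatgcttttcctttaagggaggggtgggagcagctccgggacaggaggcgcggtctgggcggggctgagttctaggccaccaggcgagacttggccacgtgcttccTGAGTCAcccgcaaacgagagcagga

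Probes read well above background made up 51.9% to 58.6% of a control array, 57.3% to 61.4% of an SM array and 53.4% to 57.9% of an SM + MSTF array. No member spot was saturated. All 11 member probes were well above background on all 10 arrays. Of the 110 member spots, 42 had been read from the low-intensity scan and scaled up, among them every spot of Gsta2, Gstm1 and Mgst1. Probe sequences were not used here, so signal shared between near-identical GST genes of a class could not be separated. The 4 SM arrays filled slide 2, the controls lay on slide 1 with SM + MSTF replicate 3, and SM + MSTF replicates 1 and 2 lay on slide 3. An effect of SM and one of slide 2 cannot be told apart. Without SM + MSTF replicate 3, control, SM and SM + MSTF each lie on a slide of their own. Differences between groups and between slides then cannot be told apart in any comparison. The slide of SM + MSTF replicate 3 also differs from that of the other SM + MSTF arrays. SM + MSTF replicate 3 stood apart from the other arrays for the GST genes, as described further down, and results that rest on it are given with and without it. All values below are log2 signals after quantile normalization, and differences are differences of log2 signal. In whole liver, fewer cells of a type and less RNA per cell cannot be told apart.

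The comparison of SM with control asked whether GST transcripts had changed 24 h after SM. None of the 9 measured genes passed the test, which required an adjusted p under 0.05 (limma, Benjamini-Hochberg over 22991 tested probes) and a fold of at least 1.5. Of all tested probes, 553 (2.41%) passed it. By size, 7 of the 9 genes had higher means in SM and 2 had lower means, with a median difference of 0.13 and a range of -0.08 to 0.38, beside a median of 0.03 over all tested probes. At an unadjusted p under 0.05 there was 1 of the 9 genes, Gsto1, beside 16.4% of all tested probes. The control and SM arrays did not overlap for Gsto1 and Gstm2, beside 18% of all tested probes. Both were higher in SM, a pattern that 10% of all tested probes had. Among marker lists, all 9 Kupffer cell and macrophage genes and all 8 T and NK cell genes had lower means in SM and all 5 erythroid genes had higher means. The 2 tested B cell genes were lower (median -1.44) and the 2 neutrophil genes higher. At an unadjusted p under 0.05 were 2 of 2 B cell (Cd79b and Cd74), 2 of 5 erythroid, 2 of 8 stellate cell and 2 of 11 pericentral hepatocyte genes. The count was 1 of 8 for T and NK cells, 1 of 6 for endothelial cells and 0 of 9 for Kupffer cells and macrophages, beside 16.4% of all tested probes. It was 0 for the hepatocyte, periportal hepatocyte, cholangiocyte and neutrophil lists. Cd79b was well above background on 7 of the 10 arrays. Of these markers 1 passed the test, Klrd1 of natural killer cells (-1.22, limma adjusted p = 0.0277). The part of these cells in the GST values was not tested.

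Gsto1 encodes the omega-class enzyme, which acts as a thioltransferase and reduces dehydroascorbate. Its values were 12.84, 12.94 and 13.14 on the control arrays, 13.36, 13.49, 13.22 and 13.15 on the SM arrays, and 13.17, 13.17 and 13.25 on the SM + MSTF arrays. All 7 arrays from SM-injected rats lay above all 3 controls, although the lowest SM array, at 13.15, was barely above the highest control. The SM mean exceeded control by 0.33 (SE 0.11, 95% interval 0.08 to 0.58), a fold of 1.26, and limma's adjusted p was 0.174. With 1 array left out the difference ran from 0.26 to 0.42. It was 0.26 without control replicate 1, a fit with 2 controls in which no member had an unadjusted p under 0.05. The share of all tested probes at that threshold was not computed for this fit. In it 139 of 23050 tested probes passed the test, beside 553 of 22991 with all arrays. SM + MSTF exceeded control by 0.22 (SE 0.12, limma adjusted p = 0.587) and differed from SM by -0.11 (SE 0.11, limma adjusted p = 0.652).

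With all arrays, the mu-class gene Gstm2 had the widest difference of the list between SM and control. It gave 13.68, 13.20 and 13.69 in control, 14.00, 14.06, 13.82 and 13.72 in SM, and 13.60, 14.22 and 13.33 in SM + MSTF. The SM arrays lay just above the controls, while the SM + MSTF arrays spread from 13.33 to 14.22. The difference between SM and control was 0.38 (SE 0.21, 95% interval -0.09 to 0.85, limma adjusted p = 0.423). Without control replicate 2 it was 0.21, less than the 0.31 of Gsto1 in the same fit. Gstm1, another mu-class subunit, gave 15.51, 15.16 and 15.52 in control, 15.29, 15.80, 15.33 and 15.59 in SM, and 15.04, 15.70 and 14.75 in SM + MSTF. Its groups overlapped in every comparison, and SM differed from control by 0.11 (SE 0.22, limma adjusted p = 0.859).

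Gsta2 encodes an alpha-class subunit that also reduces organic hydroperoxides. Its probes had nearly equal mean signals, 17.069 and 17.066. The brighter probe gave 17.10, 16.75 and 17.19 in control, 17.23, 17.43, 17.27 and 17.04 in SM, and 17.22, 17.32 and 16.15 in SM + MSTF. The SM + MSTF value of 16.15 was the lowest of the 10, and the other 9 arrays spanned 16.75 to 17.43. The brighter probe differed by 0.23 between SM and control (SE 0.26, limma adjusted p = 0.716) and the other probe by 0.0065, although the pair followed each other over the 10 arrays (Pearson r = 0.944, a description). That SE pools the spread of all 3 groups, so SM + MSTF replicate 3 enters it. The SD of the brighter probe was 0.23 in control, 0.16 in SM and 0.65 in SM + MSTF. Gsta4, whose product clears hydroxynonenal from lipid peroxidation, gave 13.05, 13.12 and 13.25 in control, 13.30, 13.45, 13.21 and 13.13 in SM, and 13.30, 13.40 and 12.97 in SM + MSTF. The difference of 0.13 between SM and control (SE 0.13, limma adjusted p = 0.656) lay within the spread of the arrays.

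Gstt1, the theta-class enzyme that acts on small halogenated compounds, gave 11.28, 11.12 and 11.20 in control, 11.44, 11.56, 11.25 and 11.46 in SM, and 11.25, 11.42 and 10.91 in SM + MSTF. In 3 of the 4 SM arrays it was above every control. The difference was 0.23 (SE 0.13, limma adjusted p = 0.445). Gstk1, the kappa-class gene, gave 13.76, 13.57 and 13.40 in control, 13.77, 13.71, 13.51 and 13.60 in SM, and 13.65, 13.55 and 13.30 in SM + MSTF. Its SM mean differed from control by 0.07 (SE 0.13, limma adjusted p = 0.832).

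The pi-class gene Gstp1, a marker of preneoplastic foci in rat liver, and the microsomal gene Mgst1, whose product sits in the endoplasmic reticulum and outer mitochondrial membrane, had slightly lower means in SM. Gstp1 gave 12.47, 12.32 and 12.21 in control, 12.29, 12.25, 12.26 and 12.29 in SM, and 12.27, 12.45 and 12.04 in SM + MSTF. The SM arrays lay inside the control range, with an SD of 0.02, and the difference was -0.06 (SE 0.11, limma adjusted p = 0.844). The dimmer Gstp1 probe, with values from 9.36 to 9.81, differed from control by 0.04, and the pair gave r = 0.808 over the 10 arrays. Mgst1 gave 16.52, 16.51 and 16.64 in control, 16.45, 16.59, 16.42 and 16.45 in SM, and 16.46, 16.50 and 16.08 in SM + MSTF. The difference between SM and control was -0.08 (SE 0.12, limma adjusted p = 0.788), and under 75th percentile scaling it was 0.019.

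**Figure D1:**
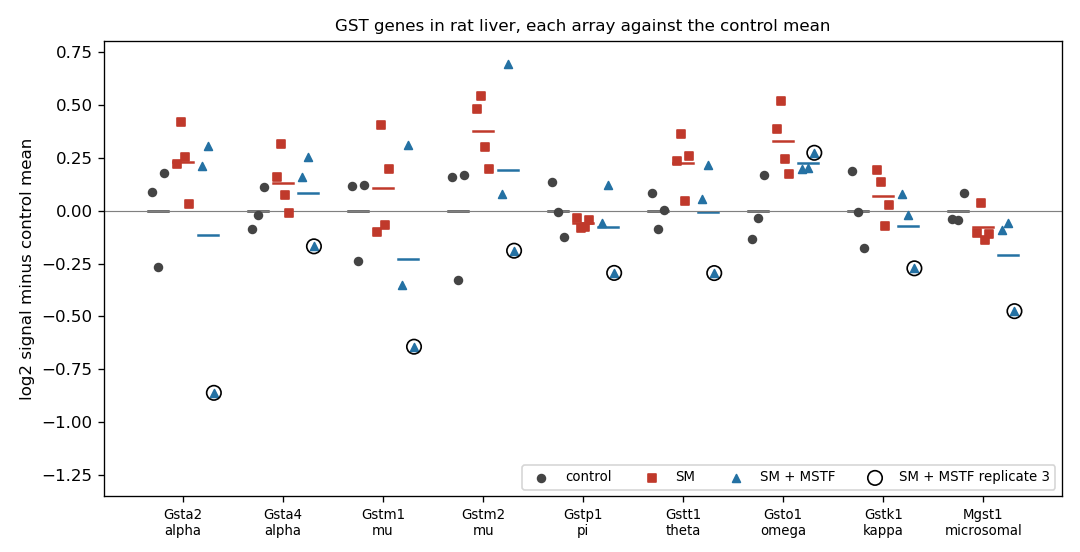
Log2 signal of each array minus the mean of the 3 control arrays (vertical axis) for the 9 measured GST genes (horizontal axis, with class), 1 probe a gene. Points are single arrays by group and short lines are group means. The circled point, SM + MSTF replicate 3, is the lowest for 7 of the 9 genes, and for Gsto1 all SM and SM + MSTF arrays lie above the controls.

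SM + MSTF against control asked what differed in rats given both agents. None of the 9 genes passed limma's test, and neither did any of the 22991 tested probes (0%). At an unadjusted p under 0.05 there were 0 of the 9 genes, beside 9.54% of all tested probes. The means were higher for Gsta4, Gstm2 and Gsto1 and lower for the other 6 genes, with a median of -0.07 and a range of -0.23 to 0.22, beside a median of 0.0046 over all tested probes. The groups did not overlap for Gsto1, which was higher, and Mgst1, which was lower (-0.21, SE 0.12, limma adjusted p = 0.621), beside 15.4% of all tested probes in either direction and 8.03% with SM + MSTF higher. The highest SM + MSTF value of Mgst1 was 16.50 and the lowest control value 16.51. Without SM + MSTF replicate 3, 7 of the 9 genes had higher means than control with a median of 0.14, 0 of 9 passed, and 250 of 23048 tested probes did. In that fit an effect of the treatment and one of slide 3 cannot be told apart. Within slide 1, the single SM + MSTF array lay below the mean of the 3 controls by 0.86 for Gsta2 and 0.64 for Gstm1, and 0.27 above it for Gsto1.

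SM + MSTF against SM asked how the livers of treated and untreated SM rats differed. None of the 9 genes passed limma's test, beside 290 of 22991 tested probes (1.26%), and 0 of 9 had an unadjusted p under 0.05, beside 15.9%. All 9 means were lower in SM + MSTF, with a median of -0.14 and a range of -0.34 to -0.02, beside a median of -0.02 over all tested probes. The lowest were Gsta2 (-0.34, SE 0.26, limma adjusted p = 0.522) and Gstm1 (-0.34, SE 0.22, limma adjusted p = 0.468). Gstt1 had the smallest adjusted p, 0.398 (limma, difference -0.23, SE 0.13). For every member the arrays of these groups overlapped, beside 14.7% of all tested probes that did not overlap, 5.95% with SM + MSTF higher. This common direction rested on SM + MSTF replicate 3, because without it 4 of the 9 means were lower and the median was 0.0035. Without SM + MSTF replicate 2, a fit that keeps SM + MSTF replicate 3, 3 of the 9 genes had an unadjusted p under 0.05. The share of all tested probes at that threshold was not computed for this fit, so the count has no background to be read against. The smallest limma adjusted p of a member was 0.190, and 197 of 23230 tested probes passed the test. Of the marker lists, the 9 measured Kupffer cell and macrophage genes all had higher means in SM + MSTF than in SM (median 0.41, 4 at an unadjusted p under 0.05), as did 7 of 8 T and NK cell genes. Of the markers 2 passed the test, Klrd1, which was higher (1.15, limma adjusted p = 0.0455), and Rhbg, an ammonium transporter of pericentral hepatocytes, which was lower (-0.86, limma adjusted p = 0.0431). Without SM + MSTF replicate 3 neither passed, and 5 of 8 T and NK cell genes were higher. All 9 Kupffer cell and macrophage genes were still higher (median 0.41), 3 at an unadjusted p under 0.05, beside 13.6% of all probes then tested. The part of these cells in the GST values was not tested.

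For 6 of the 9 genes (66.7%) the 95% interval of the difference lay inside 1.5-fold in either direction in each comparison. Over all tested probes the share was 60.1% for SM against control, 59.6% for SM + MSTF against control and 58.5% for SM + MSTF against SM. The exceptions were Gsta2 by its brighter probe, Gstm1 and Gstm2, whose intervals reached beyond 1.5-fold in each comparison. The other Gsta2 probe stayed inside it for SM against control (-0.42 to 0.43) and reached beyond it in the comparisons with SM + MSTF. For the brighter Gsta2 probe the SE was 0.28 for SM + MSTF against control and 0.26 against SM. Without SM + MSTF replicate 3 these were 0.16 and 0.15, while those of Gstm1 were 0.23 and 0.21 and those of Gstm2 0.22 and 0.21. The standard errors for SM against control ran from 0.11 to 0.26 with a median of 0.13, beside a median of 0.15 over all tested probes.

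**Figure D2:**
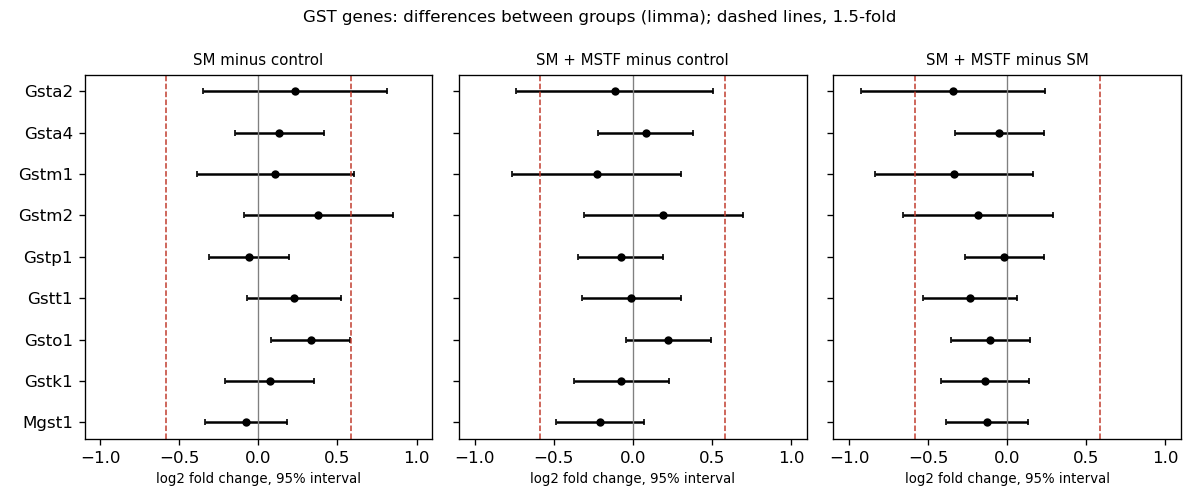
Difference of log2 signal (horizontal axis) for the 9 GST genes (vertical axis) in the 3 comparisons, from limma with all 10 arrays. Points are estimates, bars are 95% intervals and dashed lines mark 1.5-fold. The bars of Gsta2 (brighter probe), Gstm1 and Gstm2 cross a dashed line in every comparison, and the bar of Gsto1 leaves out 0 in SM against control.

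SM + MSTF replicate 3 was the lowest of the 10 arrays for 7 of the 9 genes, the exceptions being Gstm2, lowest in control replicate 2, and Gsto1, lowest in control replicate 1. It was lowest for 18.5% of all tested probes and for 27.9% of the 3186 tested probes at least as bright as the dimmest member. The median member lay 0.42 below the mean of the other 9 arrays (-0.42 as a difference), from -1.02 for Gsta2 to 0.08 for Gsto1. The median of those 3186 probes was -0.04. The mean log2 signal over the members was 13.64 on this array, 14.00 and 14.19 on SM + MSTF replicates 1 and 2, 13.85 to 14.03 in control and 14.03 to 14.26 in SM. Among cell type markers it was lowest for 4 of 10 hepatocyte genes, 5 of 10 periportal and 2 of 11 pericentral hepatocyte genes, 4 of 5 cholangiocyte genes and 6 of 8 stellate cell genes. It was lowest for 0 of 9 Kupffer cell and macrophage genes, 0 of 6 endothelial genes and 0 of 8 T and NK cell genes. The hepatocyte markers averaged 15.94 on this array against 16.04 to 16.20 on the other SM and SM + MSTF arrays and 16.09 to 16.11 in control, and all 10 of them were well above background on every array. Cholangiocyte markers averaged 7.72 there and 7.98 to 8.67 elsewhere, and stellate cell markers 9.93 there and 10.28 to 10.67 elsewhere. T and NK cell markers averaged 7.65 there and 6.08 to 7.33 elsewhere, and endothelial markers 9.47 there and 9.15 to 9.43 elsewhere, so that both were highest on this array. Kupffer cell and macrophage markers averaged 11.74 there, inside the range of the other arrays. Pericentral markers averaged 11.44 there and 11.12 to 11.68 elsewhere, and periportal markers 13.25 there and 13.17 to 13.38 elsewhere, so both also lay inside that range. The median pericentral gene lay 0.48 above its mean over the other 9 arrays, with genes from -1.67 (Cyp7a1) to 0.97 (Slc13a3). The part of cell makeup in the GST values was not tested.

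**Figure D3:**
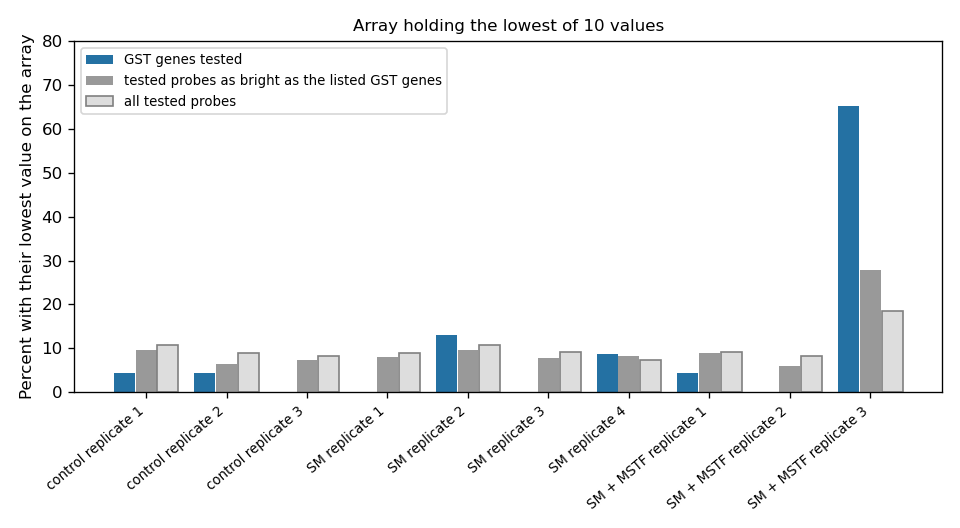
Percent of genes or probes (vertical axis) whose lowest of 10 values fell on each array (horizontal axis), for the 23 tested GST genes, the 3186 probes at least as bright as the dimmest listed GST gene and all 22991 tested probes. Some of the 23 genes, such as Gstm3 and Gsto2, are dimmer than those 3186 probes. The bar of the GST genes is highest on SM + MSTF replicate 3, at 15 of 23 genes, where the other bars stand at 27.9% and 18.5%.

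A second list held 25 further GST and related membrane genes. Of these 17 had a probe and 14 were tested, and none passed limma's test in any of the 3 comparisons. At an unadjusted p under 0.05 there were 2, 1 and 1 of 14 genes for SM against control, SM + MSTF against control and SM + MSTF against SM, beside 16.4%, 9.54% and 15.9% of all tested probes. The medians were 0.05, -0.13 and -0.05. Without SM + MSTF replicate 3 the counts for the latter comparisons were 2 and 1 of 14 (14.3% and 7.14%), beside 12.0% and 13.6% of all probes then tested. The medians were then -0.04 and 0.05. Gstm6l and Gstt4 were not well above background on any array, and Ptges was on 1 SM array.

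By class, all 4 tested alpha genes had higher means in SM than in control (0.08 to 0.23). The upper end came from the Gsta2 probe used here, and the other Gsta2 probe, of nearly equal mean signal, gave 0.0065. Gsta1 gave 16.98, 16.94 and 16.98 in control and 16.94 to 17.13 in SM, and Gsta3 differed by 0.09 (SE 0.10). The 6 mu genes split into 4 higher and 2 lower (-0.56 to 0.38), both pi genes were lower (-0.06 and -0.25), and the theta genes went 1 each way (-0.20 and 0.23). The theta and pi directions depended on the probe. The -0.20 came from the brighter Gstt2 probe, and the dimmer one gave 0.24. The -0.06 came from the brighter Gstp1 probe, and the dimmer one gave 0.04. The omega genes were both higher (0.04 and 0.33), and the 5 microsomal genes split into 3 higher and 2 lower. In SM + MSTF against SM, lower means were found for 4 of 4 alpha, 5 of 6 mu, 2 of 2 pi, 1 of 2 theta, 2 of 2 omega and 4 of 5 microsomal genes. The dimmer Gstp1 probe, not counted here, was higher by 0.04. Without SM + MSTF replicate 3 lower means were found for 1 of 4 alpha, 3 of 6 mu, 0 of 2 pi, 1 of 2 theta, 2 of 2 omega and 1 of 5 microsomal genes. No class held a gene that passed the test, and no difference between classes was tested.

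Within the microsomal class, Mgst2, which also makes leukotriene C, gave 13.39, 13.39 and 13.45 in control, 13.86, 13.67, 13.68 and 13.90 in SM, and 13.92, 13.68 and 13.23 in SM + MSTF. Its SM arrays were all above the controls, by 0.37 on average (SE 0.15, limma adjusted p = 0.262). SM + MSTF differed from control by 0.20 with all arrays and by 0.39 without SM + MSTF replicate 3 (limma adjusted p = 0.717 and 0.249). Ltc4s, the leukotriene C synthase of myeloid cells, gave 8.46, 7.68 and 7.76 in control, 7.0, 4.95, 5.12 and 7.38 in SM, and 7.93, 5.17 and 5.16 in SM + MSTF. Every SM array was below every control, but the SM arrays spanned 4.95 to 7.38, and the difference of -1.86 (SE 0.79) had a limma adjusted p of 0.278. Mgst3 had its lowest value of 14.54 on SM + MSTF replicate 3, where the other 9 arrays lay between 15.37 and 15.60, and its second probe gave r = 0.977 with the first.

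Of the mu genes, Gstm3 gave 7.06, 6.60 and 7.10 in control, 6.06, 6.39, 6.54 and 6.47 in SM, and 5.02, 6.89 and 5.94 in SM + MSTF. Its SM arrays were all below the controls, with a difference of -0.56 (SE 0.36, limma adjusted p = 0.494), and SM + MSTF differed from control by -0.97 (SE 0.38, limma adjusted p = 0.480). Gstm7 gave 11.36, 11.40 and 11.12 in control, 11.86, 11.79, 11.68 and 11.21 in SM, and 10.98, 11.48 and 10.92 in SM + MSTF, and differed by -0.51 between SM + MSTF and SM (SE 0.19, limma adjusted p = 0.240), or by -0.40 without SM + MSTF replicate 3 (limma adjusted p = 0.445). Gstm5, Gstp3, Gsto2 and Alox5ap had unadjusted p values above 0.05 in all 3 comparisons, and this held without SM + MSTF replicate 3 in both comparisons that include SM + MSTF. Gstm4 gave 10.56, 10.99 and 9.76 in SM + MSTF, beside 10.17 to 10.42 in control and 10.11 to 10.49 in SM. With all arrays SM + MSTF differed by 0.14 from control and 0.07 from SM (limma adjusted p = 0.887 and 0.905), and without SM + MSTF replicate 3 by 0.48 and 0.41 (limma adjusted p = 0.311 and 0.313). The sigma-class gene Hpgds, a prostaglandin D synthase, differed by 0.42 between SM + MSTF and SM (SE 0.19, limma adjusted p = 0.326), and SM + MSTF replicate 3 was its highest array. The pair of Gstt2 probes disagreed, at -0.20 and 0.24 for SM against control, and followed each other weakly (r = 0.229 over 10 arrays).

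**Figure D4:**
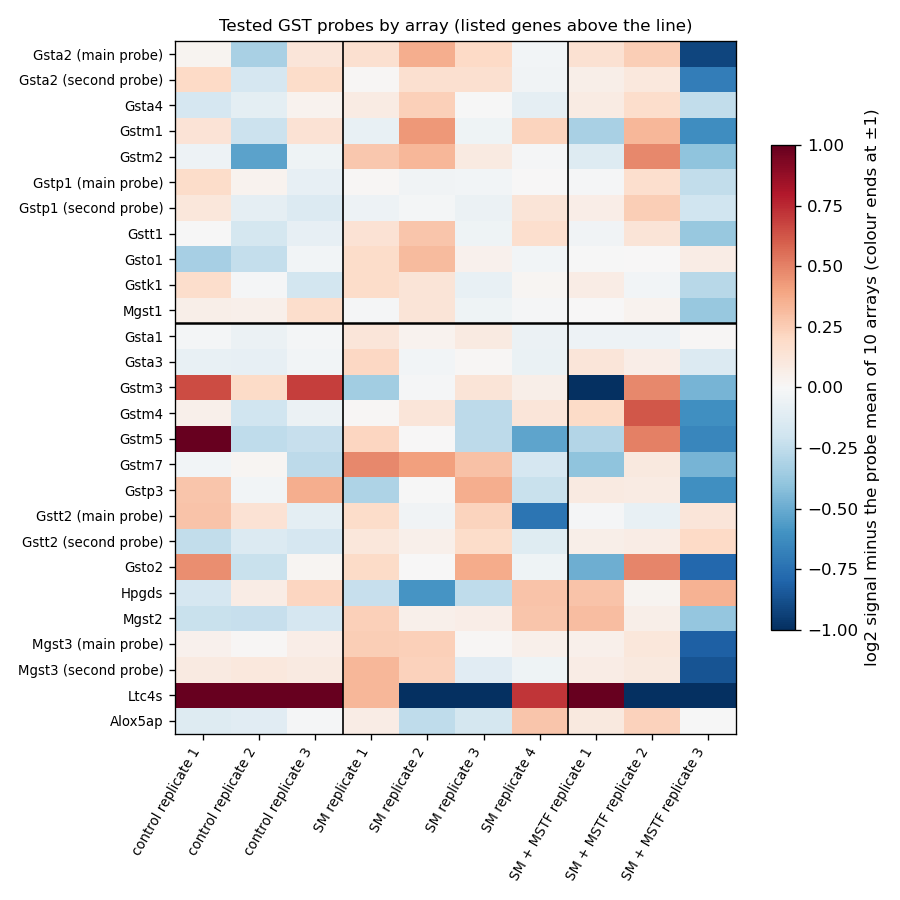
Log2 signal minus each probe's mean over the 10 arrays (colour, ends at 1 either way) for all tested GST probes (rows) on each array (columns, by group). Listed genes stand above the heavy line. The column of SM + MSTF replicate 3 is the lowest for most rows, while Gsto1, Gsta1, Gstt2, Hpgds and Alox5ap are not low there.

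Genes that make glutathione or process and export its conjugates were counted as a group of 30, of which 28 had a probe and 26 were tested. None passed limma's test in any comparison. In SM against control 18 means were higher and 8 lower, with a median of 0.22 beside 0.03 over all tested probes, and 4 of 26 (15.4%) had an unadjusted p under 0.05, beside 16.4% of all. Among them were Cndp2, a cysteinylglycine dipeptidase (0.41, SE 0.13, limma adjusted p = 0.147), Abcc5, a transporter (-0.24, SE 0.09, limma adjusted p = 0.228), and Gsr, glutathione reductase (0.49, SE 0.19, limma adjusted p = 0.243). In SM + MSTF against control the count was 0 of 26, beside 9.54% of all, and in SM + MSTF against SM it was 7 of 26 (26.9%), 6 lower and 1 higher, beside 15.9% of all. Without SM + MSTF replicate 3 these counts were 1 and 4 of 26 (3.85% and 15.4%), all lower, beside 12.0% and 13.6% of all probes then tested.

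Of 20 transcription factors and partners known to control GST genes, 17 had a probe and 16 were tested, and none passed limma's test. The unadjusted count was 0 of 16 for SM against control, 1 for SM + MSTF against control and 0 for SM + MSTF against SM, beside 16.4%, 9.54% and 15.9% of all tested probes. Without SM + MSTF replicate 3 it was 2 of 16 against control and 3 of 16 against SM, beside 12.0% and 13.6%. The smallest adjusted p in SM against control belonged to Jun, an AP-1 subunit (-0.68, SE 0.31, limma adjusted p = 0.313), followed by Bach1, a repressor at antioxidant response elements (0.30, limma adjusted p = 0.332), and Cebpb, a leucine zipper factor of hepatocytes (0.57, limma adjusted p = 0.339), which differed by 0.88 between SM + MSTF and control (limma adjusted p = 0.424). Fos, the partner of Jun, differed by -0.82 with an SE of 0.75.

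The listed genes with the smallest moderated F p over the 3 groups were Gsto1 (limma, unadjusted p = 0.0444) and Gstt1 (limma, unadjusted p = 0.170). The named genes most like Gsto1 in log2 signal over the 10 arrays were Tmed3 (Pearson r = 0.963, Spearman rho = 0.830), Ehhadh (0.942 and 0.988) and Cyb5a (0.942 and 0.842). For Gstt1 they were Tst (0.977 and 0.976), Klhl15 (0.963 and 0.927) and Atp6v0e2 (0.943 and 0.830). These are descriptions over arrays that share groups and slides, picked from many genes.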

How the data were processed

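Arrays were grouped by the treatment label of each deposited sample. Per the methods, the authors read each spot with Feature Extraction 10.7 and normalized by the quantile algorithm in GeneSpring. The deposited scanner files hold background-subtracted intensity for each spot, and the authors' deposited table holds log2 values for each probe with a median of 5.18 in every column, used as an alternative. It is already normalized, and its columns correlated with the scanner log2 values at r = 0.999987 or above across probes, which are not independent.

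Here the intensity of 43379 spots was used, without control spots and without the 0 to 4 spots of an array that Feature Extraction marked as not uniform. Quantile normalization over all arrays was followed by log2, and spots of the same probe were averaged to give 41012 probes. A probe was tested if, for at least 1 group, every array had a share of 0.5 or more of its spots well above background, which kept 22991. Genes were named through accessions in a table of RefSeq genes of GRCr8, which named 17512 probes. Coordinates are given for the RefSeq promoter windows only, since the array design predates that assembly. A gene with several probes took the one of highest mean signal.

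The 3 comparisons came from 1 fit of limma 3.58.1 in R 4.3.3 (lmFit and eBayes, no covariates), with Benjamini-Hochberg adjustment over all tested probes. The fold minimum is that of the methods. The script was tested on simulated data with known changes. The median ratio of signal to background was 2.20 to 2.54 per array, and precision is limited by the number of arrays.

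The genes and lists were chosen with earlier results of these data known. Named were all listed genes, the other GST genes with a probe, up to 4 of the conjugate and regulator lists by adjusted p in SM versus control (1 gene of these is not reported here), and 3 genes most like each of the 2 listed genes with the smallest F p. The marker lists also held B cell, neutrophil and erythroid genes. Of these, 2, 2 and 5 were tested, and SM + MSTF replicate 3 was the lowest array for 0 of each.

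Replicate numbers did not pair the rats. Deviations from group means of arrays with the same number correlated at -0.10 to 0.17 over 9 pairs. Alternatives were 75th percentile scaling, the deposited log2 values, normexp with an offset of 50, other filters on dim probes, only the groups compared, unadjusted p, no fold minimum, the t-test of the methods, replicate or slide as a block, the median over the probes of a gene, and each array left out in turn.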

Additional observations from a re-analysis of the deposited data

Results flagged for a closer look

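Of 26 GST genes checked for an array far from the other 3 of the SM group, 1 stood out. Gstm6l, a mu-class gene, had a log2 signal of 2.43 in SM replicate 4 and 2.15 in the other SM arrays, a gap of 0.974 of the whole range. It was not well above background on any of the 10 arrays. Chance alone marks about 1 in 20 groups in this way.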

How the results depend on the processing

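None of the 9 GST genes passed the test in any comparison under any alternative that was run. Without the fold minimum, the methods' t-test put 2 of them at an unadjusted p under 0.05 in SM versus control, beside 17.2% of all tested probes, and 0 in each other comparison, beside 7.82% against control and 13.0% against SM. Of their log2 differences, 22 values changed sign under an alternative. Among the 40 other GST and conjugate genes tested, none passed in the reported setting. With unadjusted p and the fold minimum there was 1 in SM versus control (Ltc4s), 1 in SM + MSTF versus control (Gstm3) and 3 in SM + MSTF versus SM (Ggct, Ggt7 and Nat8). With the methods' t-test at unadjusted p there was 1 in SM + MSTF versus SM (Ggct). With slide as a fixed block there were 2 in SM + MSTF versus control (Abcc2 and Mgst3), a fit that rests on slide 1, where SM + MSTF has 1 array. The count over all tested probes was not computed for that fit, so these genes have no background to be read against. The fixed block leaves no estimate for comparisons with SM, which were not run. The replicate block gave 0 genes in all lists and comparisons. It changed no call.

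Signs changed for Mgst1 in SM versus control under 75th percentile scaling (0.019), for Gstp1 in SM + MSTF versus SM under normexp (0.053) and the median over probes (0.0091), and for Gstm2 (-0.19) and Gsta4 (-0.17) in SM + MSTF versus control with slide as a fixed block. The cause was not tested. With 1 array left out, SM versus control ran from -0.12 to 0.0085 for Gstp1, -0.014 to 0.18 for Gstm1 and -0.019 to 0.16 for Gstk1. SM + MSTF versus control ran from -0.16 to 0.028 for Gstk1, -0.12 to 0.14 for Gstt1, -0.055 to 0.39 for Gstm2, -0.0052 to 0.21 for Gsta4, -0.32 to 0.25 for Gsta2 and -0.18 to 0.030 for Gstp1. SM + MSTF versus SM ran from -0.14 to 0.074 for Gsta4, -0.55 to 0.024 for Gsta2, -0.20 to 0.0035 for Mgst1, -0.43 to 0.0065 for Gstm2 and -0.12 to 0.089 for Gstp1. Over all probes, leaving out 1 array moved the count of 553 in SM versus control to between 65 and 718, that of 0 in SM + MSTF versus control to as many as 250, and that of 290 in SM + MSTF versus SM to between 98 and 301. All-probe medians under 75th percentile scaling were 0.05, -0.01 and -0.06.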
